A study of Mus musculus with 23 samples.

Results

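The SMN complex genes described here are 8 of the 55487 mouse genes counted: Smn1, Gemin2, Gemin4, Gemin5, Gemin6, Gemin7, Gemin8 and Strap. They were matched by Ensembl ID, and all 8 were found. The members were chosen by axonal CPM and detection, since Smn1, Gemin6 and Gemin8 had unlike patterns across axonal libraries. For that reason every axonal value of a member, and every contrast that uses one, is given as a description without a test. The cells were hippocampal neurons of C57Bl/6 mouse pups at postnatal day 1, with 200000 cells seeded per microfluidic chamber, a device in which axons grow through narrow channels into a separate compartment. All cultures received magnetic nanoparticles at 5 µg/ml. The stretched cultures were kept in a field gradient of 50 T/m from day in vitro 1 to day in vitro 6, which pulls on the particles, and the control cultures were in a null gradient. Libraries came from the axonal side, labelled as a pure axonal preparation (5 control, 6 stretched), and from the other side, labelled as total cell culture and called soma here (6 control, 6 stretched). The labels do not say whether pups were pooled or what a replicate number marks, so p-values measure only the spread between these libraries, which may be technical.

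The survival of motor neuron (SMN) complex loads a ring of Sm proteins onto the small nuclear RNAs (snRNAs) of the spliceosome, in the cytoplasm, before the particles return to the nucleus. SMN and Gemin2 form its core, Gemin5 recognises the snRNA, Gemin3 (encoded by Ddx20) is a helicase held by Gemin4, and Gemin8 joins SMN to a module of Gemin6, Gemin7 and Strap (also called Unrip). Loss of SMN1 in humans causes spinal muscular atrophy, and SMN protein has been seen in granules moving along axons, where it binds RNA-binding proteins and actin regulators. A transcript level says nothing of where these proteins are.

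The libraries held 16369153 to 43048953 counts, and 3 counts per library, the floor used for a fold against a group at 0, equal 0.0697 to 0.183 counts per 1000000 (CPM). Soma libraries had counts for 22452 to 24575 genes and axonal libraries for 4263 to 10242. The label of the axonal samples was set against cell markers and against 10 transcripts of dendrites, cell bodies and nuclei. Summed over those 10, control axons had 1035 to 3600 CPM and stretched axons 1304 to 3277 CPM. Control somata had 2658 to 3614 CPM and stretched somata 1980 to 3017 CPM, with all 10 present in each group. Summed over 8 neuronal markers, control axons had 1272 to 4376 CPM, stretched axons 2314 to 4015 CPM and somata 5477 to 6963 CPM. Summed over 7 astrocyte markers, control axons had 3838 to 21230 CPM, stretched axons 3872 to 18665 CPM and somata 4616 to 12684 CPM, with all 7 present in each group. Summed over 6 microglial markers, control axons had 0 to 363 CPM, with all but Tmem119 at 0 in every library, stretched axons 0 to 312 CPM, with P2ry12 at 0, control somata 22.7 to 46.6 CPM and stretched somata 15.4 to 22.7 CPM. Summed over 8 markers of the oligodendrocyte lineage, control axons had 0 to 438 CPM, stretched axons 0.0351 to 281 CPM and somata 39.8 to 74.1 CPM. Olig2, Sox10 and Cspg4 were at 0 in both axonal groups, and Sox10 was at 0 in somata too. Summed over 7 endothelial and fibroblast markers, control axons had 1.63 to 268 CPM, stretched axons 0 to 1004 CPM and somata 118 to 211 CPM, with Cldn5 at 0 in both axonal groups. Single axonal libraries thus exceeded every soma library in each of these 3 lists, and in the astrocyte list too. Median astrocyte sums were 16997 CPM in control and 7137 CPM in stretched axons, beside 7564 and 7753 CPM in control and stretched somata. The part of non-neuronal RNA in the levels below was not tested, and fewer cells of a type cannot be told apart from less RNA per cell.

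All 8 genes were present in all 12 soma libraries, with 0 of 96 values at 0, and they spanned a wide range of levels. Per kilobase of the longest annotated transcript, Strap, a WD-repeat protein, was highest at 118 ± 17.8 CPM per kb (SD, n = 12). Gemin7, an Sm-fold protein, followed at 60.2 ± 10.9 CPM per kb, and Smn1, the scaffold, at 33.3 ± 3.92 CPM per kb. These levels, with that of Gemin6 (13.9 ± 1.70 CPM per kb), the partner of Gemin7, formed an order in which no neighbours overlapped. Gemin5 (5.15 ± 0.412 CPM per kb) and Gemin2 (4.72 ± 0.639 CPM per kb) did overlap. Gemin8 lay below them at 2.89 ± 0.562 CPM per kb. Gemin4 was last at 0.244 ± 0.119 CPM per kb, a value that must be read with its locus: 91.3% of its exonic bases (3410 of 3734) are also exonic in Glod4, Fam57a or Dbil5, and the files keep reads that fall on 2 genes in a total of their own. For Gemin7 this share was 14.8%, from Zfp296 on the opposite strand, and for the other 6 genes it was 0. Ddx20, which is not a member of the list, had 11.1 ± 1.37 CPM per kb and lay between Gemin6 and Gemin5.

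**Figure D1:**
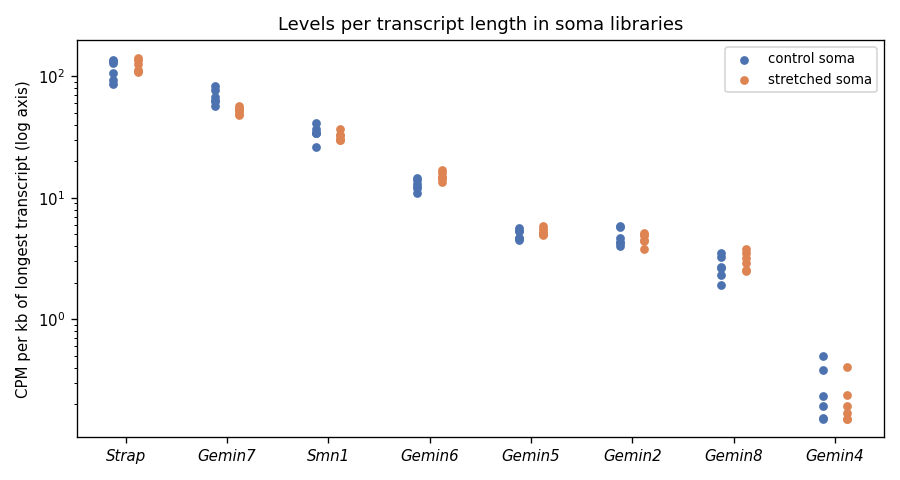
Level of each SMN complex gene in soma libraries, in CPM per kilobase of the longest transcript on a log axis; each point is a library (6 control, 6 stretched). The order runs from Strap at 118 CPM per kb to Gemin4 at 0.244 CPM per kb, and the libraries of Gemin5 and Gemin2 overlap.

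In axonal libraries the same genes were either abundant or nearly missing. Of the 88 axonal values (8 genes in 11 libraries), 42 were 0 and 13 were between 1 and 9 counts. The other 33 were between 223 and 25458 counts, and no value lay between 8 and 223. This spread is not particular to these genes: over 10817 genes with a soma level of 5 to 500 CPM, 82.7% of the 51707 nonzero axonal values were at least 100 counts and 6.50% were between 10 and 99. At least 10 counts were present in 14 of 40 member values (35%) of control axons and in 19 of 48 (39.6%) of stretched axons. With 1 count as the limit these were 22 (55%) and 24 (50%). An axonal library held 2 to 4 of the 8 genes with at least 10 counts in the control group and 1 to 5 in the stretched group. Each fold against a group at 0 below is a bound on counts in these libraries at the floor. It is not a bound on RNA in the axons. CPM are shares of a library total, which axonal libraries spread over fewer genes than soma libraries did. A ratio of axonal to soma CPM below is therefore a description of shares and no measure of enrichment in axons. Ratios of other genes of like soma level were not set beside it. Whether a 0 was an absent transcript or one that was not captured was not tested.

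**Figure D2:**
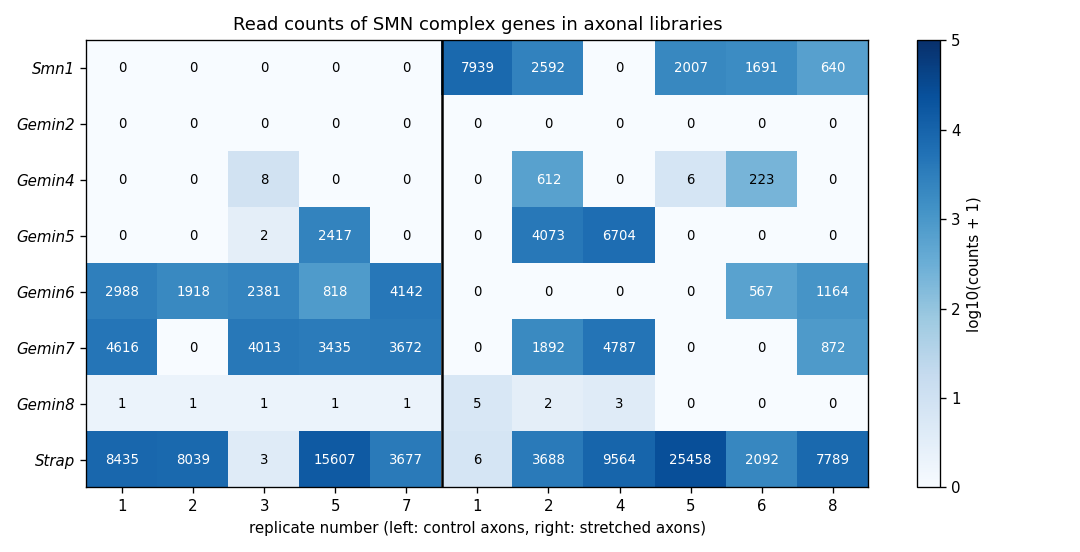
Read counts of the 8 genes (rows) in the 5 control and 6 stretched axonal libraries (columns, by replicate number), with colour on a log10(counts + 1) scale. Smn1 is at 0 in all 5 control libraries, Gemin6 is in all 5, Gemin2 is at 0 in all 11, and Gemin8 is at 0 to 5 counts throughout.

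Smn1 (ENSMUSG00000021645; GRCm38 chromosome 13, 100124852 to 100137690, plus strand) encodes the SMN scaffold. Control axons 1, 2, 3, 5 and 7 all had 0 counts. In stretched axons its level was 303 CPM in replicate 1, 158 CPM in replicate 2, 0 in replicate 4, 70.4 CPM in replicate 5, 88.1 CPM in replicate 6 and 32.4 CPM in replicate 8. The groups thus met only at the value 0 of stretched replicate 4, and the other 5 stretched libraries held 640 to 7939 counts. In control somata its level ran from 32.1 to 50.2 CPM with a median of 41.8, and in stretched somata from 36.8 to 45.1 CPM with a median of 38.5. The mean of the control axons was therefore at least 331-fold lower than that of the control somata, taken against a floor of 3 counts per library. The stretched axons averaged 109 ± 109 CPM (SD, n = 6), which is 2.77 times their somata and at least 855-fold higher than the control axons taken at that floor. Replicate 1 carried much of this mean, which was 69.8 CPM without it, and the bound then became 549.6-fold. Among 4491 genes within 2-fold of the Smn1 soma level, 8 (0.178%) had no count in control axons and counts in at least 5 of 6 stretched axons. That pattern was set from the counts of Smn1 itself, so its rarity is no test. All 4491 genes together had counts in 42.2% of their control and 44.4% of their stretched axonal values.

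Gemin2 (ENSMUSG00000060121; chromosome 12, 59013393 to 59028470, plus strand) encodes the partner that holds SMN in the core. It had 0 counts in all 11 axonal libraries, whichever the condition. Its soma level was 7.77 to 11.4 CPM (median 8.79) in control and 7.36 to 10.0 CPM (median 9.20) in stretched libraries, which overlapped. The axonal mean was at least 73.7-fold lower in control and at least 64.7-fold lower in stretched cultures. Of 3506 genes within 2-fold of this soma level, 16.0% likewise had no count in any axonal library, so an axonal 0 was common at this level. The 5 stretched axons with Smn1 therefore held no Gemin2 read.

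Gemin6 (ENSMUSG00000055760; chromosome 17, 80224441 to 80228497, plus strand), an Sm-fold protein paired with Gemin7, had a pattern opposite to that of Smn1. In control axons it had 166, 95.7, 105, 19.0 and 161 CPM in replicates 1, 2, 3, 5 and 7. In stretched axons it was 0 in replicates 1, 2, 4 and 5, 29.5 CPM in replicate 6 and 58.9 CPM in replicate 8. All 5 control libraries had the transcript against 2 of 6 stretched libraries, and those 2 lay within the control range. Stretched replicates 6 and 8 also had counts for the most genes, 7012 and 10065, beside 4263 to 6405 in replicates 1, 2, 4 and 5. Control replicates 1, 2 and 7 held Gemin6 with counts for 4867, 4952 and 5442 genes. The part of the number of genes captured was not tested. Means were 109 ± 59.7 CPM (SD, n = 5) and 14.7 ± 24.6 CPM (SD, n = 6), a stretched to control ratio of 0.135. Without stretched replicate 8 the stretched mean was 5.90 CPM. Against somata at 14.5 ± 1.55 CPM (control) and 17.1 ± 1.40 CPM (stretched), both n = 6, the axonal mean was 7.53 times as high in control and 0.863 times as high in stretched cultures. Of 4130 genes within 2-fold of its soma level, 7 (0.169%) had counts in all 5 control and in at most 2 stretched axonal libraries. That pattern was set from the counts of Gemin6 itself, so its rarity is no test. Smn1 and Gemin6 were together above 10 counts only in stretched replicates 6 and 8.

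Gemin7 (ENSMUSG00000044709; chromosome 7, 19564946 to 19577595, minus strand) binds Gemin6 and links it to Gemin8. Its axonal level was 257, 0, 177, 79.8 and 143 CPM in control replicates 1, 2, 3, 5 and 7. It was 0, 116, 200, 0, 0 and 44.1 CPM in stretched replicates 1, 2, 4, 5, 6 and 8. The groups overlapped, with 4 of 5 control and 3 of 6 stretched libraries above 0. Mean levels were 131 ± 97.3 CPM (SD, n = 5) and 59.9 ± 82.1 CPM (SD, n = 6), which were 1.88 and 1.12 times those of the matching somata. Without stretched replicate 4 the stretched mean was 31.9 CPM, below the 53.5 CPM of the stretched somata. Gemin6 and Gemin7 were both above 10 counts in 4 of 5 control libraries but in 1 of 6 stretched ones, namely replicate 8.

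Strap (ENSMUSG00000030224; chromosome 6, 137735078 to 137751932, plus strand) binds the Gemin6 and Gemin7 pair and, apart from the complex, receptors of the TGF-beta family. It was the member most often found in axons. Control axons had 469, 401, 0.132, 363 and 143 CPM in replicates 1, 2, 3, 5 and 7, the low value being 3 counts. Stretched axons had 0.229, 225, 399, 892, 109 and 394 CPM in replicates 1, 2, 4, 5, 6 and 8, the low value being 6 counts. The groups overlapped widely, and at least 1 count was present in all 11 libraries, as for 28.6% of 1223 genes within 2-fold of its soma level. Its axonal mean was 0.912 times the soma mean in control and 1.04 times in stretched cultures.

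Gemin8 (ENSMUSG00000040621; chromosome X, 166170454 to 166190512, plus strand) bridges SMN and the Gemin6 and Gemin7 pair. It had exactly 1 count in each of the 5 control axonal libraries, and no other of the 55487 genes had that pattern. The pattern was set from the counts of Gemin8 itself, so its rarity is no test. In stretched axons it had 5, 2 and 3 counts in replicates 1, 2 and 4 and 0 in replicates 5, 6 and 8. All axonal values lay at or near the floor, and the groups overlapped. Pooled over the control axons, this was 5 counts or 0.0386 CPM (exact Poisson 95% interval 0.0125 to 0.0901). Pooled over the stretched axons, it was 10 counts or 0.0746 CPM (0.0358 to 0.137). The reads were amplified and do not count molecules one to one, so the intervals hold only the error of counting. No single control library was above 3 counts, so the values rest on the pooled counts. Soma levels were 5.24 ± 1.13 CPM and 5.92 ± 1.01 CPM (SD, n = 6 each), so the axonal level was 0.00737 times the soma level in control (0.00239 to 0.0172) and 0.0126 times in stretched cultures (0.00605 to 0.0232). Gemin8 reached 10 counts in no axonal library, so whether it occurred beside Gemin7 cannot be read at that limit.

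Gemin5 (ENSMUSG00000037275; chromosome 11, 58120002 to 58168539, minus strand), the WD-repeat protein that reads the snRNA, was present in single libraries. In control axons it had 2 counts in replicate 3, 56.1 CPM in replicate 5 and 0 elsewhere. In stretched axons it had 249 CPM in replicate 2, 280 CPM in replicate 4 and 0 in the other 4. Without control replicate 5, the deepest library at 43048953 counts, the control mean went from 11.2 to 0.0221 CPM. In somata its level was 31.2 ± 2.92 CPM in control and 32.8 ± 2.09 CPM in stretched libraries (SD, n = 6 each), the smallest relative spread of the 8 genes over all somata, with a coefficient of variation of 8.0%.

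Gemin4 (ENSMUSG00000049396; chromosome 11, 76210571 to 76217664, minus strand) anchors the helicase. Control axons held 8 counts in replicate 3 and 0 in the other 4. Stretched axons held 612 counts (37.4 CPM) in replicate 2, 6 counts in replicate 5, 223 counts (11.6 CPM) in replicate 6 and 0 in the other 3. Its soma level was 0.954 ± 0.50 CPM in control and 0.775 ± 0.345 CPM in stretched libraries (SD, n = 6 each). The 2 stretched axons thus exceeded every soma library, and in each the reads shared with overlapping genes are not in the count. Ddx20 was at 0 in all 5 control axons and, among stretched axons, had 279 CPM in replicate 4 and 83.6 CPM in replicate 8. Gemin4 and Ddx20 reached 10 counts together in no axonal library.

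**Figure D3:**
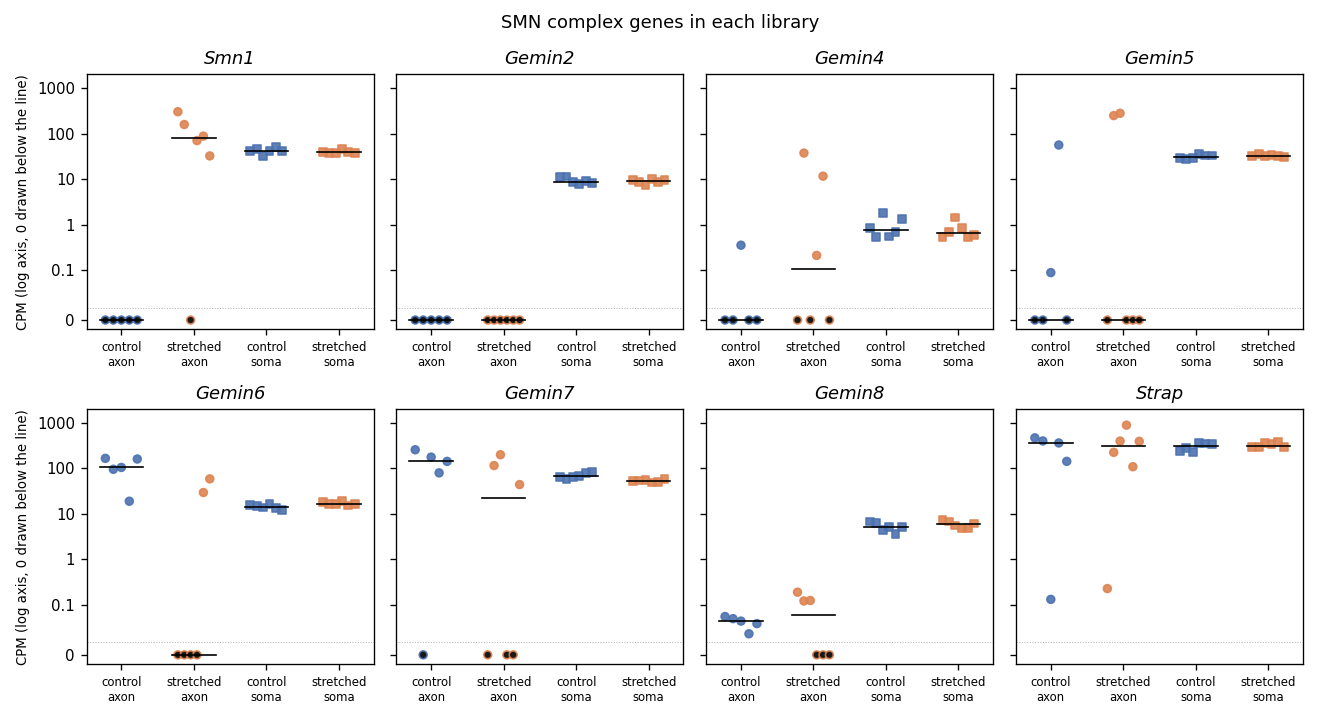
CPM of each SMN complex gene in every library, with control in blue and stretched in orange, on a log axis with 0 drawn below the dotted line; bars are group medians. Soma points of a gene lie close together, while axonal points spread from 0 to 892 CPM (Strap in stretched axon replicate 5).

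The choice of members rested on axonal values, so the effect of stretch could be tested in somata. Gemin7 fell and the other 7 genes did not pass the test. Gemin7 had 58.0, 63.7, 64.4, 68.5, 79.2 and 84.5 CPM in the 6 control somata and 48.8, 50.2, 53.1, 54.3, 56.4 and 58.2 CPM in the 6 stretched somata. On this scale the lowest control library (58.0) and the highest stretched library (58.2) met at the edge. In normalized CPM they were 58.0 and 57.8, so the groups lay close without overlap. The stretched level was 0.746 times the control level, or -0.42 on the log2 scale (SE 0.10), with an adjusted p of 0.00983 in edgeR's quasi-likelihood test, adjusted over the 15632 genes tested. This count of 1 in 8 stands against 25.1% of all genes called in this comparison, of which 13.9% were lower and 11.2% higher. The members' median change was -0.03, the same as over all genes tested.

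Gemin7 is also a short transcript, and short transcripts as a group were lower in stretched somata. Its longest transcript has 1023 bases, and the 432 tested genes within 10% of that length had a median change of -0.37, with 35.6% of them called lower. With an offset for transcript length in each library the change of Gemin7 was -0.13 with an edgeR adjusted p of 0.484. The soma libraries also fell into 6 with 24.7 to 28.7 CPM of the Y-linked gene Eif2s3y (replicates 1, 2 and 3 of control, 1, 2 and 8 of stretched) and 6 with 5.39 to 13.2 CPM (replicates 4, 5 and 6 of each). Within the higher side the change of Gemin7 was -0.17 (edgeR adjusted p = 0.213) and within the lower side -0.61 (edgeR adjusted p = 0.272), each with 3 against 3 libraries. It had the same sign on both sides and passed on neither. On the lower side 0 of the 15718 genes tested were called, so the miss there says nothing of Gemin7 in particular. With the side as a covariate over all 12 libraries the change was -0.41 with an edgeR adjusted p of 0.00443.

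Among the genes that missed the threshold, Gemin6 had the largest positive value, 0.19 (SE 0.11, edgeR adjusted p = 0.208), while genes within 10% of its length had a median of -0.34. With the length offset Gemin6 stood at 0.48 with an edgeR adjusted p of 0.0188, and with the replicate block added at 0.47 with an edgeR adjusted p of 0.0518. Smn1 stood at -0.14 (SE 0.11, edgeR adjusted p = 0.354) and Gemin2 at -0.10 (SE 0.14, edgeR adjusted p = 0.642). Gemin8 stood at 0.13, Strap at 0.07 and Gemin5 at 0.03, with SEs of 0.18, 0.12 and 0.09. Gemin4 was least certain at -0.34 with an SE of 0.38. For Smn1, Gemin2, Gemin5, Strap and Gemin4 the sign itself depended on the libraries or the length offset, as listed in the closing section.

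**Figure D4:**
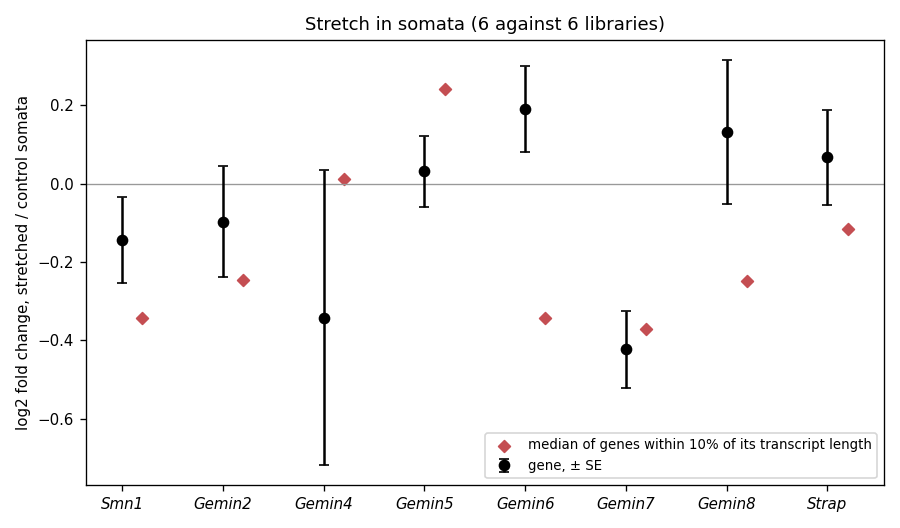
Log2 fold change of each SMN complex gene, stretched against control somata (6 libraries each), with bars of 1 SE (black), beside the median of genes within 10% of its transcript length (red diamonds). Gemin7 at -0.42 lies near the -0.37 of genes of its length, and Gemin6 at 0.19 lies above the -0.34 of its own.

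Strap differed by side of the Eif2s3y split more than by stretch. On the side with higher Eif2s3y its soma level ran from 230 to 297 CPM with a median of 285, and on the other side from 337 to 373 CPM with a median of 356. These ranges did not overlap, and Strap was the only member of which that was true. The share of all genes with such a gap was not counted, so the gap is not shown to be particular to Strap. The summed astrocyte markers went the other way, from 9544 to 12684 CPM on the higher side and from 4616 to 5735 CPM on the lower side. Their part in the level of Strap was not tested.

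The genes that work with the complex were counted from lists of 74 in all, of which 31 passed the test in somata, 6 higher and 25 lower with stretch, where 11.2% of all genes were higher and 13.9% lower. These shares of all genes are those to set beside each list count that follows without the length offset. For list counts with the length offset, 922 of all 15619 genes tested were higher and 1485 lower. The partner genes' median change was -0.21, beside -0.03 over all genes tested. Of the 8 Sm proteins that SMN places on snRNAs, 7 fell and none rose, with a median of -0.47. Snrpb fell from 228 ± 32.6 to 164 ± 6.27 normalized CPM (SD, n = 6 each), a change of -0.50 with an edgeR adjusted p of 0.00432, and the groups did not overlap. Snrpd2 fell by 0.51 and Snrpg by 0.55 on the log2 scale. Snrpf, at 1.80 ± 0.504 normalized CPM in control somata, was the Sm gene that did not pass. With the length offset 3 of the 8 were called, with a median of -0.19, and Snrpg was not among them. Neuronal markers moved beside these lists, as 4 of 8 (Tubb3, Rbfox3, Stmn2 and Nefm) fell, while 0 of 7 astrocyte markers were called. With the length offset 2 of the 8 neuronal markers fell and 0 of the 7 astrocyte markers were called. With the replicate block 3 neuronal markers fell and 1 astrocyte marker rose. The part of cell composition was not tested.

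Other steps of snRNP assembly moved less evenly. Among 6 genes of Sm protein methylation, which precedes loading, 2 fell, with Prmt5, the methyltransferase, at -0.41 and its cofactor Coprs at -0.28, a call that was lost in 17 of 24 alternatives. Among 12 genes of snRNA export, capping, import and the Cajal body, Xpo1, the export receptor, rose by 0.86 (SE 0.19, edgeR adjusted p = 0.00930). Kpnb1, the import receptor, rose by 0.42, a call lost in 14 of 24 alternatives. Phax, the snRNA export adaptor, fell by 0.46, a call lost with the length offset. Of 11 LSm and U7 genes 4 fell, with Lsm2 at -0.87 (SE 0.14, edgeR adjusted p = 0.00293), Lsm7 at -0.48 and Lsm10, a subunit of the U7 ring, at -0.43. With the length offset 2 of the 11 were called, and Lsm7 and Lsm10 lost their calls.

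Proteins specific to finished particles were counted next. Among 12 proteins of the U1 and U2 particles 7 fell and 1 rose, with a median of -0.31. Snrpa, the U1 A protein, stood at -0.53, as did Snrpa1, the U2 A' protein, and Snrpc, the U1 C protein, at -0.51. With the length offset 5 fell and 0 rose. Of 8 proteins of the minor spliceosome 4 fell, with Snrnp25 at -0.62, Zmat5 at -0.61 and Snrnp35 at -0.45, and with the length offset these 3 lost their calls and 1 of 8 was called. The call on Snrnp35 was lost in 7 of 24 alternatives, the replicate block and the fits without control soma replicate 1 or 2 among them. Of 11 partners of SMN in neurites 2 rose and 0 fell, with a median of 0.10. Copa, a coatomer subunit, rose by 0.50, and Elavl4, the HuD RNA-binding protein, rose by 0.41, a call lost with the length offset. Of 5 modifiers of SMN loss, Pls3, an actin-bundling protein, rose by 0.29, a call lost in 7 of 24 alternatives, the replicate block and the fits without control soma replicate 1 or 6 or stretched soma replicate 2 or 8 among them. Calls on Copa, Snrpb, Snrpa, Snrpa1, Snrpc, Prmt5, Xpo1 and Lsm2 were lost in 1 of 24 alternatives each, which used only the 6 somata with lower Eif2s3y. In that fit 0 of all genes were called.

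**Figure D5:**
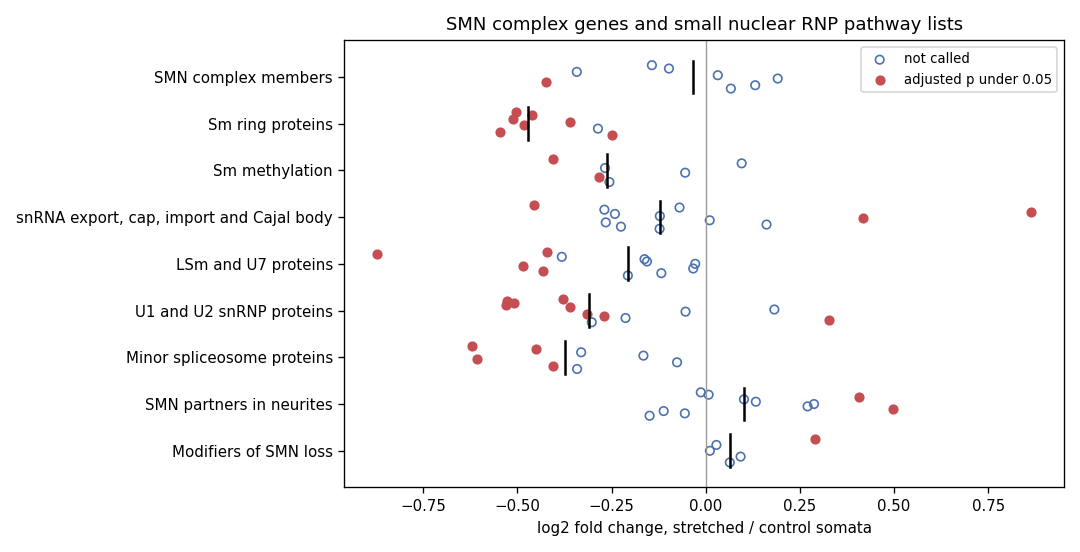
Log2 fold change, stretched against control somata, of each gene in the SMN complex and in 8 lists of genes that work with it; filled red points passed an adjusted p of 0.05, open points did not, and black ticks are list medians. The Sm ring median is -0.47 with 7 of 8 called lower, while the SMN complex median is -0.03 with 1 of 8 called.

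In axonal libraries most values of these partner genes were well above 0. At least 10 counts were present in 220 of 370 values (59.5%) of the 74 genes in control axons and in 271 of 444 (61.0%) in stretched axons, beside 35% and 39.6% for the members. Sm proteins reached this in 37 of 40 control values and in 48 of 48 stretched values, and their summed level was 388 to 1732 CPM and 995 to 1631 CPM. The lists differ in soma level and the difference was not tested. With 1 count as the limit, genes within 2-fold of the Gemin2 soma level (9.19 CPM) had counts in 21.7% of control axonal values. For genes within 2-fold of the Strap soma level (313 CPM) this share was 79.6%. With stretch, 0 of the 58 partner genes tested in axons were called by edgeR, where 0% of all 4947 genes were, and 0 of the 58 had an unadjusted p under 0.05. DESeq2 called 18 of all genes and limma voom 10, and each called 0 of the 58 (0 and 3 with an unadjusted p under 0.05). With axonal libraries that spread this widely, these counts do not show that levels were alike.

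Between axons and somata of control cultures, 1 of the 74 partner genes was higher and 7 were lower, where 35.3% of all genes were called, 0.856% higher and 34.4% lower. With limma voom 44 of the 74 were lower in control and 42 in stretched cultures. Over all genes, limma voom called 9715 of 14728 lower in control and 10013 of 14466 lower in stretched cultures. Pfn1, the actin-binding profilin that binds SMN, had 1097 ± 258 CPM (SD, n = 5) in control axons and 403 ± 17.3 CPM (SD, n = 6) in control somata. In normalized CPM these were 937 ± 176 and 457 ± 15.8, which lay closer together. The change fitted with that normalization was 1.17 on the log2 scale (SE 0.16, edgeR adjusted p = 8.3e-05). Ddx20, Coil, the Cajal body scaffold, Toe1, an snRNA-trimming nuclease, and Snrnp35 were at 0 in all control axons. They were at least 238-fold, 255-fold, 68.1-fold and 137-fold lower there than in somata. Lsm11, Pdcd7 and Rnpc3 each had counts in 1 of 5 control axons. All 7 genes thus passed the filter on low counts through their somata. In stretched cultures Pfn1 was higher (0.88, SE 0.29, edgeR adjusted p = 0.0347) and 4 genes were lower, where 29.3% of all genes were called, 0.843% higher and 28.4% lower. Toe1, Rnpc3 and Pdcd7 were at 0 in all 6 stretched axons, at least 54.7-fold, 84.5-fold and 25.8-fold lower than in somata, and Lsm11 had counts in 1. The call on Pfn1 was lost in 2 of 17 alternatives in control and in 10 of 18 in stretched cultures.

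The genes most like Smn1, Gemin6 and Gemin8 were found by Pearson's r of log2(CPM + 1) over all 23 libraries among 9287 genes, as a description. Efna5 was nearest to Smn1 (r = 0.96), followed by Tcta (0.87) and Cyp1b1 (0.86), and all 3 had 0 counts in control axons. Mtln was nearest to Gemin6 (0.97), followed by Git1 (0.96) and Lin37 (0.92), and all 3 had counts in the 5 control axons and in 2 or 3 stretched axons. Fmo1, Tap1 and AI464131 were nearest to Gemin8 (0.99 each), with axonal levels at or near 0. The points share libraries and depth. A gene steady in somata and near 0 in axons would come near Gemin8 by that split alone, so the 3 named are not shown to be particularly like it.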

How the data were processed

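RNA was measured in 23 libraries by poly(A) sequencing with amplification of low-input cDNA. The authors deposited whole-number read counts per gene. Per the submitters' processing notes, reads were handled with fastp 0.20.1, STAR 2.7.08a and HTSeq 0.13.5 against mm10. The annotation, the strand setting and any use of molecular identifiers are not given in the sources used here, so overlapping genes and antisense genes cannot be told apart. Between 14.2% and 24.4% of reads per library were not assigned to a gene and were left out. Symbols were matched for 55141 of 55487 IDs, and coordinates, overlaps and lengths came from GENCODE M21 (GRCm38). CPM are counts divided by the library total. The floor for a fold against a group at 0 is 3 counts per library.

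Each comparison was fitted on its own 2 groups with edgeR 4.0.16 in R 4.3.3 (filterByExpr, TMM, robust quasi-likelihood F test, Benjamini-Hochberg adjustment over all genes tested, threshold 0.05). SE is the log2 fold change divided by the square root of F. The fits were tested on simulated counts. Alternatives were RLE factors, no TMM, no filter, DESeq2 1.42.0, limma voom (limma 3.58.1), the replicate number as a block, each library left out, the Eif2s3y split, both soma libraries numbered 4 left out and an offset for transcript length. No 2 libraries were identical. The members and all lists were chosen with earlier results of these data known. In each list and comparison the up to 3 called genes with the largest change are named, and for likeness the 3 nearest genes, among those that averaged 10 CPM or more; markers, Snrpf and Eif2s3y were named after their values were seen.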

Additional observations from a re-analysis of the deposited data

Results flagged for a closer look

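In 29 groups of 4 to 10 values of the SMN complex genes, 5 single libraries stood apart from the rest by the gap that Dixon's criterion uses. Chance alone gives about 1 in 20 such groups, and this rate is for the soma values only. Smn1 was 45.1 CPM in stretched soma replicate 5, where the next library had 39.9 CPM. Gemin4 was 1.44 CPM in stretched soma replicate 4, where the next had 0.846 CPM. The other 3 are a description and no test, since axonal values chose the genes and in a group mostly at 0 a lone higher value gives such a gap: Gemin4 with 0.353 CPM in control replicate 3 (next 0), Gemin4 with 37.4 CPM in stretched replicate 2 (next 11.6 CPM), and Gemin5 with 56.1 CPM in control replicate 5 (next 0.0882 CPM).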

How the results depend on the processing

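In somata, 1 of 8 SMN complex genes was called with stretch, and this count was also 1 without any single library (1 to 1) and with the replicate block, where all genes gave 3227 calls against 3929. The count was 0 within either side of the Eif2s3y split and 0 with the block and length offset together (Gemin6 0.47, edgeR adjusted p = 0.0518), and with the length offset alone it was 1, Gemin6 in place of Gemin7. Signs that turned, all of genes not called, were Smn1 to 0.14 and Gemin2 to 0.10 with the length offset, or 0.088 and 0.059 with the block as well, Gemin5 to -0.21 and -0.22, and on the lower Eif2s3y side Gemin2 to 0.028, Gemin4 to 0.096, Gemin5 to -0.083 and Strap to -0.0049. With 1 library left out Gemin5 ran from -0.0060 (without stretched soma replicate 2) to 0.079 and Strap from -0.0063 (without control soma replicate 3) to 0.15.

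Calls over all genes in somata were 2666 to 6072 with 1 library left out, the highest without control soma replicate 4, 2407 with the length offset, 1907 with block and offset, and 0 on the lower Eif2s3y side (2739 with unadjusted p under 0.05). For the 74 partner genes these were 24 to 39, 16, 13 and 0 (17 unadjusted), against 31. In axons, stretch gave 0 calls (46 with unadjusted p under 0.05), 0 without any library, 18 with DESeq2 and 10 with limma voom. Axon against soma gave 5196 calls in control and 4234 in stretched cultures. These became 10714 and 10931 without the filter, 9798 and 10084 with voom, and 4542 to 8151 and 4174 to 6499 with 1 library left out, the highest without control axon replicate 5 and stretched axon replicate 8. With the block the stretched count was 7687. For partner genes the counts of 8 and 5 became 45 and 42 with voom, 8 to 12 and 4 to 9 with 1 library left out, and 12 in stretched cultures with the block. Detections in control axons were 14 at 10 counts against 22 at 1 count. The cause of these shifts was not tested. Same-numbered somata deviated together with correlations of 0.00277 to 0.397 (mean 0.226) and differently numbered ones with -0.512 to 0.487 (mean -0.0361). Since a same-numbered pair lay under 0.1 and the labels do not say what a number marks, the numbers were not taken to pair libraries. Thinning all axonal libraries to the smallest total left 21 and 24 member detections of 22 and 24.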
